A study of Mus musculus with 12 samples.

Results

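Interleukin 6 (IL-6), the members of the IL-12 family, leukemia inhibitory factor, and the colony-stimulating factors were followed in BMDMs, which are macrophages grown in culture from mouse bone marrow. The 10 genes, chosen by name, were Il6, Lif, Il12a, Il12b, Il23a, Il27, Ebi3, Csf1, Csf2, and Csf3, of 43626 genes in the count files. The RNA-Seq data comprised 12 libraries in 4 conditions of 3 libraries each, which were a PBS control, 3′SL, LPS alone, and LPS with 3′SL (LPS + 3′SL below). 3′SL (3′sialyllactose, 100 μg/mL) is a human milk oligosaccharide (HMO) made of lactose and sialic acid, LPS (10 ng/mL) is the lipopolysaccharide of gram-negative bacteria, which cells sense through TLR4, and all conditions lasted 6 hours. The labels of the libraries abbreviate 3′SL as HMO and describe injections of mice, so the doses and times for the cultured cells were taken from the study's text. The study speaks of biological replicates for RNA-Seq of such cells, but no source used here gave the strain, age, or sex of the mice behind these libraries or tied a library to an animal or a culture, so the p-values measure the spread between these libraries.

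IL-6 signals through its receptor and the shared chain gp130, which activates the kinase JAK1 and the transcription factor STAT3, and LIF uses the same shared chain. The IL-12 family is built from pairs of subunits. IL-12 is p35 (Il12a) with p40 (Il12b), IL-23 is p19 (Il23a) with the same p40, and IL-27 is p28 (Il27) with EBI3. M-CSF (Csf1) keeps macrophages alive, GM-CSF (Csf2) and G-CSF (Csf3) drive the growth of myeloid cells and neutrophils, and activated macrophages are known to make many of these factors after TLR4 is engaged.

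The depth of a library was 20411741 to 26851890 reads on genes. By their running numbers, the libraries form 3 consecutive runs of 4, each with 1 library per condition, called library sets 1 to 3 here, and libraries of the same set deviated together from the means of their conditions (correlation of residuals 0.449 to 0.744 within sets, −0.672 to −0.0110 between sets). Values within each set are therefore given beside the pooled ones. All 10 macrophage markers were measured, with a summed level of 19312 to 31638 CPM, the reads on a gene scaled to library size. The summed level of 11 fibroblast and stromal markers was 722 to 867 CPM in set 1, 30.0 to 78.4 CPM in set 2, and 78.5 to 158 CPM in set 3. That of 10 neutrophil markers was 163 to 250 CPM in set 1, 299 to 482 CPM in set 2, and 333 to 1049 CPM in set 3. T and NK cell markers summed to 8.18 to 15.7 CPM with Cd3e at 0, B cell markers to 0.733 to 2.75 CPM, mast cell and basophil markers to at most 3.06 CPM with Mcpt4, Tpsb2, and Fcer1a at 0, endothelial markers to 44.7 to 76.2 CPM, and dendritic cell markers to at most 18.5 CPM. The part of these other cells in the results below was not tested.

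In GENCODE M21 on GRCm38, 4 of the 10 genes lie on chromosome 11, Lif (chr11:4257557-4272514), Il12b (chr11:44400063-44414033), Csf2 (chr11:54247271-54249667), and Csf3 (chr11:98701263-98703629), far apart from each other. Il12a (chr3:68690644-68698547) and Csf1 (chr3:107741048-107760469) lie on chromosome 3. Il6 is at chr5:30013114-30019981, Il27 at chr7:126589010-126594941, Il23a at chr10:128296139-128298752, and Ebi3 at chr17:55952640-55957022. Counts were deposited per gene, so isoforms are not told apart.

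The sequences before the start sites of Il6, Il12b, and Ebi3 are shown because these are the genes with a sequence at hand that rose with LPS in all fits below. They are the 250 bases before the RefSeq start site in GRCm38.p6, written 5′ to 3′ on the strand of the gene. Capitals mark matches to the NF-κB consensus, AP-1, C/EBP, or PU.1 motifs, which are bound by transcription factors known from macrophage activation or macrophage identity.
Il6 (chr5:30012864-30013113, plus strand): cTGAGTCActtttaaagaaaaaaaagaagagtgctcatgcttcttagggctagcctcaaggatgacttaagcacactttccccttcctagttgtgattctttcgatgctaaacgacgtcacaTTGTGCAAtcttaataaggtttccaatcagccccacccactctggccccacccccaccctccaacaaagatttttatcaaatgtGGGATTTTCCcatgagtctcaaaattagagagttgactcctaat
Il12b (chr11:44399813-44400062, plus strand): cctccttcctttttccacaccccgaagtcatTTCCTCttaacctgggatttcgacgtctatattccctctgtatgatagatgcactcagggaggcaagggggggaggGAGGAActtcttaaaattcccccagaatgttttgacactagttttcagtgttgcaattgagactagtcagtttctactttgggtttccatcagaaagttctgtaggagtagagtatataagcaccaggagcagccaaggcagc
Ebi3 (chr17:55952373-55952622, plus strand): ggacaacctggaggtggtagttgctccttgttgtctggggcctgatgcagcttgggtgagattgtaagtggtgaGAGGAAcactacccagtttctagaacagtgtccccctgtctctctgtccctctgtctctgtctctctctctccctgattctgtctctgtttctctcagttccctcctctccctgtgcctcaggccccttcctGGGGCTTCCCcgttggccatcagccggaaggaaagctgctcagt
In Il6, the capitals are an AP-1 match at −249 to −243, a C/EBP match at −128 to −121, and an NF-κB consensus match at −44 to −35 from the start site. Il12b held PU.1 core matches at −219 to −214 and at −143 to −138, and Ebi3 held a PU.1 core match at −176 to −171 and an NF-κB consensus match at −44 to −35.

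Promoter windows of 300 bases were at hand for 7 of the 10 genes, all but Il23a, Il27, and Csf3. Both strands were searched for 7 motifs, which were the NF-κB consensus, AP-1 (TGANTCA), CRE (TGACGTCA), C/EBP (TTGCNNAA), the PU.1 core (GAGGAA), ISRE (GAAANNGAAA), and the TATA box (TATAAA). An NF-κB consensus match stood in the windows of 4 of these 7 genes, Il6, Ebi3 (which held another after the start site, at 15 to 24), Lif at −178 to −169, and Csf1 at −154 to −145 on the opposite strand, compared with 8.46% of 32851 RefSeq promoters. AP-1 matches stood in Il6 and in Lif (−228 to −222; 7.81% of all promoters), C/EBP matches in Il6 and in Csf2 (−145 to −138; 10.8%), and PU.1 cores in Il12b and Ebi3 (28.3%). CRE (1.79%), ISRE (3.44%), and TATA (13.6%) had no match in the windows of these genes, and Il12a held no match of any kind. The Csf2 window (chr11:54249850-54250149, minus strand) lies wholly before the start of the gene in GENCODE M21 (54249667), so the bases next to that start were not searched. A match is a run of letters and not a measured binding site.

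With PBS, Ebi3 and Csf1 were the most abundant of the 10 transcripts. Per kilobase of transcript (RPKM), Ebi3 was at 12.0 ± 1.14 (SD, n = 3), Csf1 at 6.53 ± 5.85, and Il27 at 0.710 ± 0.254, and the other 7 genes had means below that of Il27, from 0 for Csf2 to 0.138 for Lif. The libraries of Ebi3 and Csf1 overlapped in this order. With LPS, Il12b (95.4 ± 25.1 RPKM), Il6 (76.0 ± 16.7), and Il27 (73.3 ± 11.1) led, with overlapping libraries, followed by Ebi3 (49.4 ± 8.30), Csf1 (24.4 ± 5.13), and Csf3 (4.73 ± 1.96). Il12a, Csf2, Lif, and Il23a stayed at mean levels of 0.167 to 0.819 RPKM with LPS. With LPS + 3′SL, the order was Il12b (45.6 ± 11.1 RPKM), Ebi3 (44.4 ± 8.38), Il27 (37.4 ± 9.72), Csf1 (19.6 ± 7.53), and Il6 (15.9 ± 9.17), in which each gene overlapped the next except Il27 and Csf1. Il6 thus stood at rank 2 of this order with LPS and at rank 5 with LPS + 3′SL. Such ranks rest on the length of the principal transcript, which is 1141 bases for Il6, whose exons together cover 2428 bases. The values are levels of RNA in a whole culture, in which fewer cells of a type and less RNA per cell cannot be told apart.

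**Figure D1:**
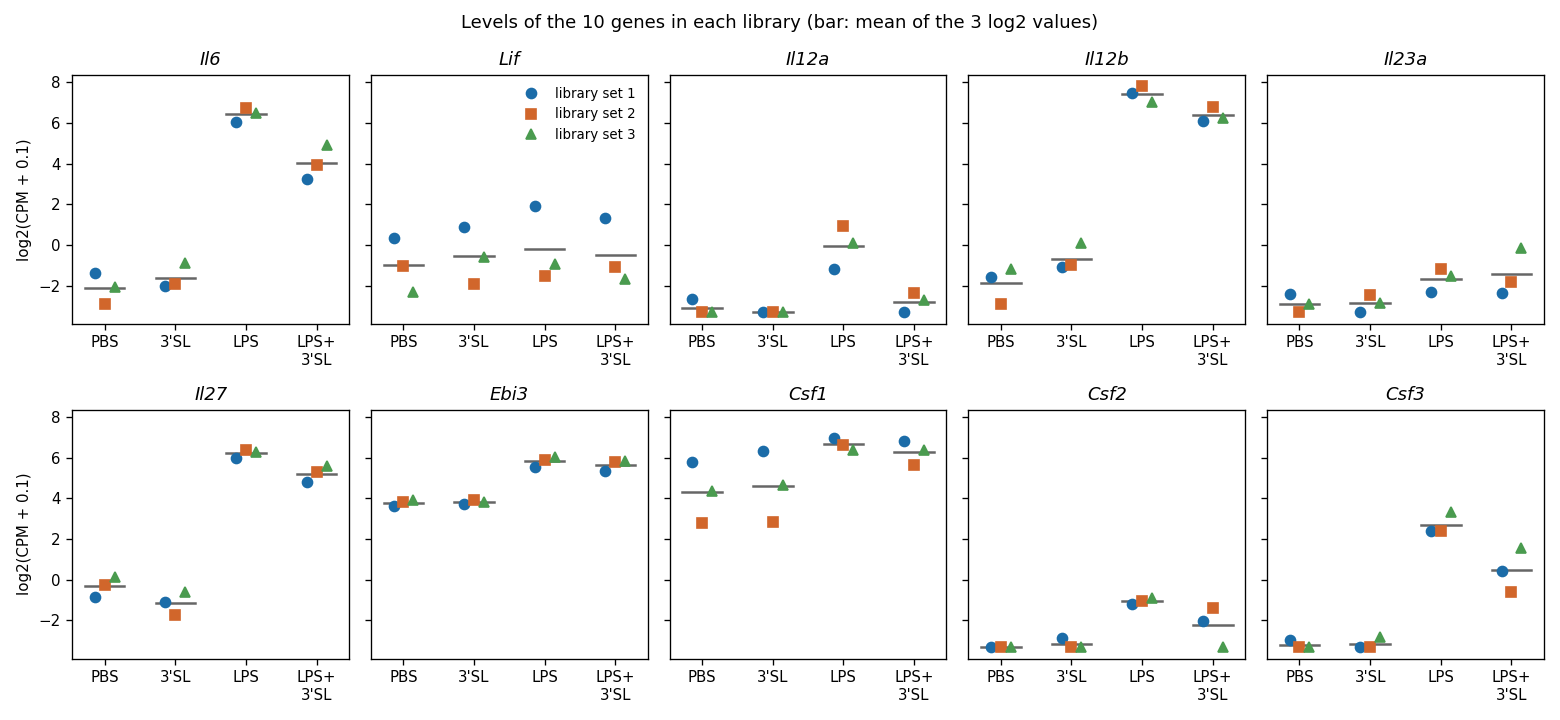
Levels of the 10 genes in each of the 12 libraries, as log2(CPM + 0.1), by condition, with the shape and color showing the library set and the bar the mean of the 3 log2 values. Il6, Il12b, Il27, Ebi3, and Csf3 are higher in all libraries with LPS than in those with PBS, while Csf1 and Lif are highest in set 1 in each condition.

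The first question was which of these genes respond to LPS. Il6, Il12b, Il27, Ebi3, and Csf3 rose, which made 5 of the 10 genes, 7 of which were tested (edgeR quasi-likelihood test, called where the Benjamini-Hochberg adjusted p was under 0.05 and the change at least 1.5-fold), compared with 18.3% of 14308 genes tested that were called higher. Csf1 and Lif were tested and not called, and Il12a, Il23a, and Csf2 did not pass the filter on low counts, which a gene can pass through the condition where it is high. Il6 and Csf3 passed it only through the conditions with LPS, so their calls with LPS are not independent of this filter. In 9 of the 10 genes, all but Lif, the scaled levels of the 3 LPS libraries lay above those of the 3 PBS libraries, as did 27.3% of genes tested. The 9 include Il12a, Il23a, and Csf2, which were not tested. Il23a had only 0 to 3 reads in a PBS library and 2 to 7 in an LPS library. An exact permutation test of 3 against 3 libraries cannot give a two-sided p below 0.1.

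Il6 had 10, 1, and 4 reads in the PBS libraries of sets 1 to 3 and 1370, 2167, and 1441 with LPS. The groups were far apart in each set. The mean level was 0.152 ± 0.127 CPM with PBS and 86.8 ± 19.1 CPM with LPS, a log2 fold change of 9.04 (SE 0.64, adjusted p = 2.22e-06). Within sets the log2 changes were 7.50, 9.79, and 8.67.

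Il12b, the p40 subunit that IL-12 and IL-23 share, also went from a few reads to a high level. Its reads were 8, 1, and 10 with PBS and 3628, 4635, and 2133 with LPS. The log2 fold change was 9.73 (SE 0.51, adjusted p = 4.58e-07), from 0.201 ± 0.153 to 178 ± 46.8 CPM, and within sets it was 9.15, 10.89, and 8.28. Its partner subunits were far lower in the same libraries. Il12a, p35 of IL-12, had 2, 0, and 0 reads with PBS and 7, 37, and 16 with LPS, a ratio of 48.6 after scaling (95% exact interval 12.9 to 410, counting error only). Il23a, p19 of IL-23, had 3, 0, and 1 reads with PBS and 2, 7, and 4 with LPS. Neither partner passed the filter, and in a fit without it (10.6% of genes called higher) Il12a passed the test (adjusted p = 0.00484) and Il23a did not (adjusted p = 0.206).

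The subunits of IL-27 both rose but started from different levels. Il27 had 16, 21, and 29 reads with PBS and 1277, 1745, and 1266 with LPS, a log2 fold change of 6.69 (SE 0.36, adjusted p = 4.58e-07) and 6.85, 6.69, and 6.20 within sets. Ebi3 had 432, 398, and 445 reads with PBS and 950, 1234, and 1058 with LPS, a log2 fold change of 2.05 (SE 0.17, adjusted p = 4.97e-06) and 1.90, 2.09, and 2.11 within sets. Ebi3 was thus already present in unstimulated cells, in which its level per kilobase was above that of Il27 in each library. Exons of Il27 overlap those of Apobr on the opposite strand, and exons of Ebi3 those of Gm16712, and whether counting used the strand is not given in the sources used here, so that reads of overlapping stretches may have been assigned to neither or to the wrong gene. Apobr was at 150 ± 29.1 CPM with PBS and 239 ± 50.5 CPM with LPS, and Gm16712 at 1.25 ± 0.0804 and 7.87 ± 1.91 CPM.

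The colony-stimulating factors differed in level. Csf3 passed the filter only through the conditions with LPS, so its call with LPS is not independent of the filter. Csf3 had 1, 0, and 0 reads with PBS and 104, 105, and 161 with LPS, a ratio of 599 (95% exact interval 107 to 23730, counting error only; adjusted p = 3.66e-05). Csf2 had no read in any PBS library and 7, 8, and 7 with LPS, which is at least 11.9-fold higher against a floor of 3 counts over the group, and it passed the test only in the fit without the filter (adjusted p = 0.00896).

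Csf1 differed by set with PBS. It had 1891, 191, and 617 reads with PBS, which is 54.3, 6.70, and 20.8 CPM, and 2560, 2023, and 1347 with LPS, which is 125, 98.0, and 82.7 CPM. The LPS libraries all lay above the PBS libraries, and the spread was much wider with PBS. The log2 fold change was 1.90 (SE 0.82, adjusted p = 0.0815), and 1.20, 3.85, and 1.99 within sets. With the library set as a block, Csf1 passed the test (log2 fold change 2.38, adjusted p = 0.00114), which made 6 of the 10 genes higher (7 were tested) compared with 20.5% of all genes tested. It also passed when only the conditions compared were fitted (adjusted p = 0.0490) and without the PBS library of set 1 (log2 fold change 2.89, adjusted p = 0.0284) or the 3′SL library of set 1 (0.0446) or set 2 (0.0429). Lif had 41, 11, and 3 reads with PBS and 76, 5, and 7 with LPS, and the groups overlapped (log2 fold change 1.38, SE 1.27, adjusted p = 0.408; 1.59, −0.53, and 1.48 within sets).

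**Figure D2:**
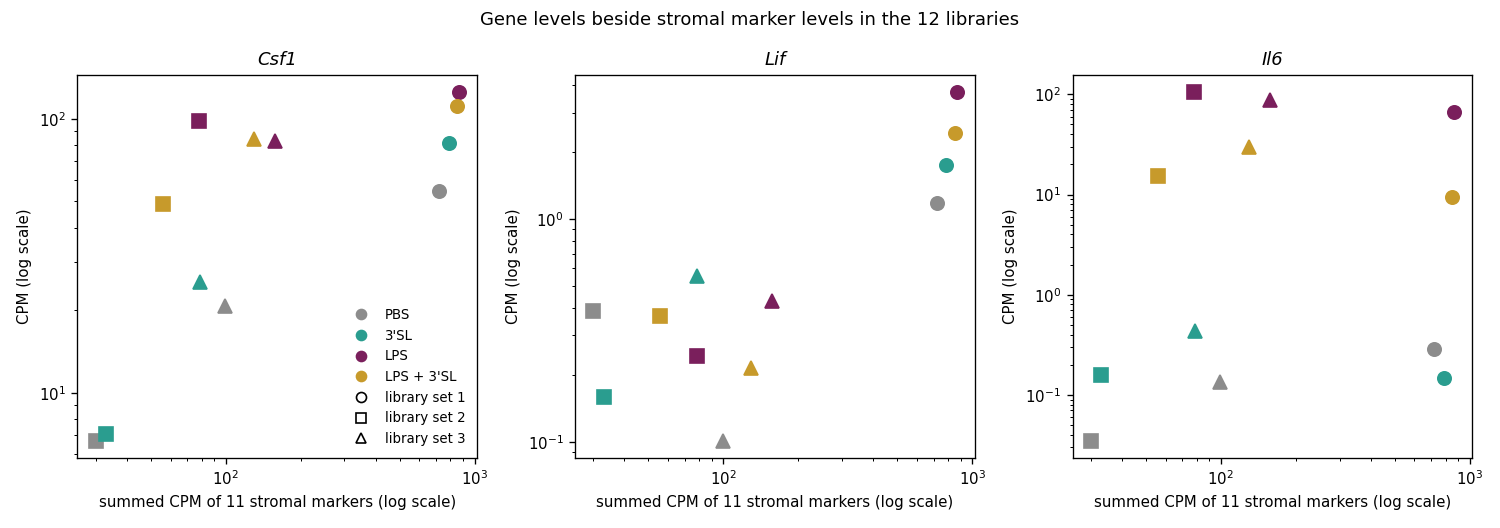
CPM of Csf1, Lif, and Il6 in the 12 libraries against the summed CPM of 11 stromal markers, both on log scales, with condition by color and library set by shape. Set 1 holds the highest stromal sum (722 to 867 CPM) and, in each condition, the highest Csf1 and Lif. Il6 separates by condition except between PBS and 3′SL, which overlap.

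Csf1 and Lif were highest in set 1 in each of the 4 conditions, and so were the stromal markers. In set 1, Csf1 was at 54.3 to 125 CPM and Lif at 1.18 to 3.71 CPM, while across sets 2 and 3 Csf1 ranged from 6.70 to 98.0 CPM and Lif from 0.101 to 0.557 CPM. Fibroblasts are known to make both factors. Il6 with LPS was lowest in set 1 (66.9 CPM, compared with 105 and 88.5 CPM in sets 2 and 3), as it was with 3′SL and with LPS + 3′SL. With PBS, Il6 was highest in set 1 (0.287 CPM, compared with 0.0351 and 0.135 CPM). The part of stromal cells in these levels was not tested.

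The same response was then measured in cells given 3′SL. Il6, Il12b, Il27, Ebi3, and Csf3 rose with LPS + 3′SL against 3′SL alone, again 5 of the 10 genes, 7 of which were tested (14.3% of all genes tested were called higher). Il6 went from 4, 4, and 11 reads to 194, 334, and 555, a log2 fold change of 6.17 (SE 0.59, adjusted p = 2.35e-05), with 5.36, 5.99, and 5.84 within sets. Il12b went from 10, 10, and 24 reads to 1429, 2355, and 1432 (log2 fold change 7.20, SE 0.45). The changes were 6.65 for Il27 (SE 0.37) and 1.86 for Ebi3 (SE 0.17) on the log2 scale. Csf3, with 1 read in the 3′SL libraries together and 91 with LPS + 3′SL, had a ratio of 115 (95% exact interval 20.1 to 4595). Csf1 (log2 fold change 1.11, adjusted p = 0.324) passed the test with the library set as a block (1.51, adjusted p = 0.0182; 16.4% of all genes higher), but not with the block and total counts as the scaling (1.03, adjusted p = 0.0598). Lif did not pass it (0.28, SE 1.26, adjusted p = 0.898).

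The central comparison was LPS + 3′SL against LPS alone, which asks whether 3′SL changes the level that LPS gives. In the edgeR test, 0 of the 7 genes and 0% of the 14308 genes tested were called, while DESeq2 called Il6 and Il27 lower (0.461% of all genes were called lower), and edgeR with the library set as a block called Il6, Il12b, Il27, and Csf3 lower (0.762%). At an unadjusted p under 0.05, edgeR without the block held the same 4 genes, compared with 6.95% of all genes in either direction. In 6 genes, Il6, Il12a, Il12b, Il27, Csf2, and Csf3, all 3 libraries with LPS + 3′SL lay below the 3 with LPS, as in 6.5% of genes tested. Of these 6, Il12a and Csf2 were not tested. Calls by the block fit rested on the sets included, since 0 of the 7 genes were called with set 1 or with set 2 left out and 4 with set 3 left out.

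Il6 with LPS was at 66.9, 105, and 88.5 CPM in sets 1 to 3, and with LPS + 3′SL at 9.41, 15.4, and 29.8 CPM. The highest library with 3′SL was below the lowest without it. The log2 fold change was −2.26 (SE 0.43, adjusted p = 0.153 with edgeR, 5.76e-04 with DESeq2, and 0.00125 with the block), and −2.82, −2.77, and −1.57 within sets. Il6 with LPS + 3′SL was thus 14.1%, 14.6%, and 33.6% of its LPS level in the 3 sets. It remained above PBS, with 194 to 555 reads compared with 1 to 10.

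Csf3, which encodes G-CSF, also had lower levels with LPS + 3′SL in each set. It was at 5.08, 5.09, and 9.88 CPM with LPS and at 1.26, 0.552, and 2.84 CPM with LPS + 3′SL, without overlap. The log2 fold change was −2.11 (SE 0.62, adjusted p = 0.367 with edgeR, 0.0861 with DESeq2, and 0.00677 with the block), and −1.94, −3.03, and −1.77 within sets.

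Il12b and Il27 showed smaller differences. Il12b was at 177, 224, and 131 CPM with LPS and at 69.3, 108, and 76.8 CPM with LPS + 3′SL (log2 fold change −1.07, SE 0.32, adjusted p = 0.384 with edgeR, 0.0991 with DESeq2, and 0.0236 with the block; −1.35, −1.05, and −0.77 within sets). Il27 was at 62.4, 84.5, and 77.7 CPM with LPS and at 27.9, 38.8, and 47.7 CPM with LPS + 3′SL (log2 fold change −0.97, SE 0.27, adjusted p = 0.311 with edgeR, 0.0422 with DESeq2, and 0.00385 with the block; −1.16, −1.12, and −0.70 within sets). For both genes all LPS libraries were higher, and set 3 had the smallest difference, as for Il6 and Csf3.

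Ebi3, the partner of Il27, showed little difference. It was at 46.4, 59.8, and 64.9 CPM with LPS and at 40.2, 55.6, and 58.0 CPM with LPS + 3′SL, with overlapping libraries. The log2 fold change was −0.15 (SE 0.16; −0.21, −0.10, and −0.16 within sets), and neither edgeR, DESeq2, nor the block fit called it. The levels with LPS + 3′SL were 86.6% to 93.0% of the LPS level for Ebi3 and 44.7% to 61.4% for Il27.

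**Figure D3:**
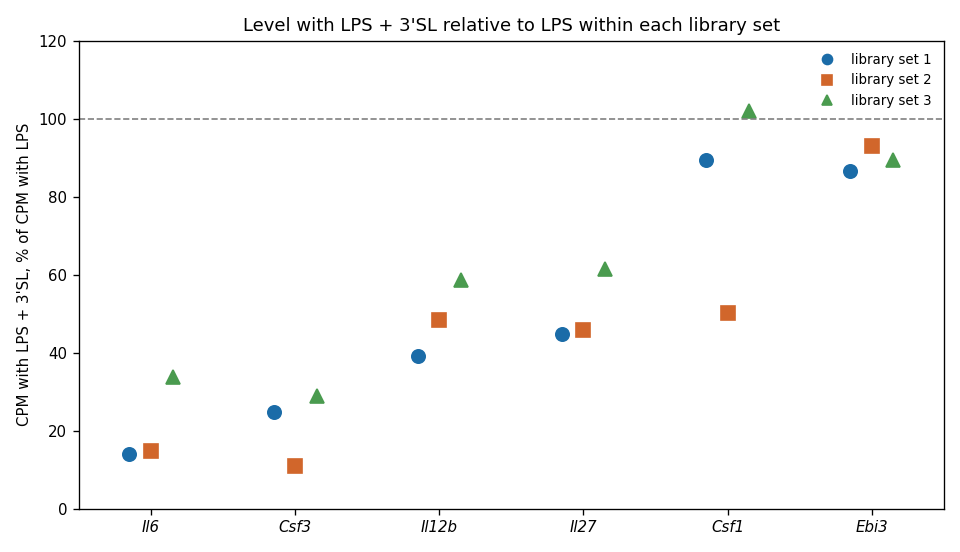
CPM with LPS + 3′SL as a percentage of CPM with LPS in the same library set, for the 6 genes with the most reads, with 100% dashed. Il6 is at 14.1% to 33.6% and Csf3 at 10.8% to 28.7%, Il12b and Il27 lie between 39.1% and 61.4%, and Ebi3 is at 86.6% to 93.0%.

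Of the subunits with few reads, Il12a had 0, 2, and 1 reads with LPS + 3′SL compared with 7, 37, and 16 with LPS, a ratio of 0.0471 after scaling (95% exact interval 0.00944 to 0.144, counting error only). It did not pass the test in the fit without the filter (adjusted p = 0.450). Csf2 had 3, 6, and 0 reads with LPS + 3′SL and 7, 8, and 7 with LPS (adjusted p = 0.976 in the fit without the filter). Il23a had 2, 4, and 15 reads with LPS + 3′SL and 2, 7, and 4 with LPS, and the groups overlapped. The sum of 21 reads for Il23a with LPS + 3′SL rested mostly on the library of set 3. Csf1 was at 112, 49.0, and 84.3 CPM with LPS + 3′SL (log2 fold change −0.32, SE 0.80; −0.16, −0.998, and 0.03 within sets), and Lif had 50, 8, and 4 reads (log2 fold change −0.55, SE 1.25; −0.60, 0.47, and −0.79 within sets). Both overlapped the LPS libraries.

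**Figure D4:**
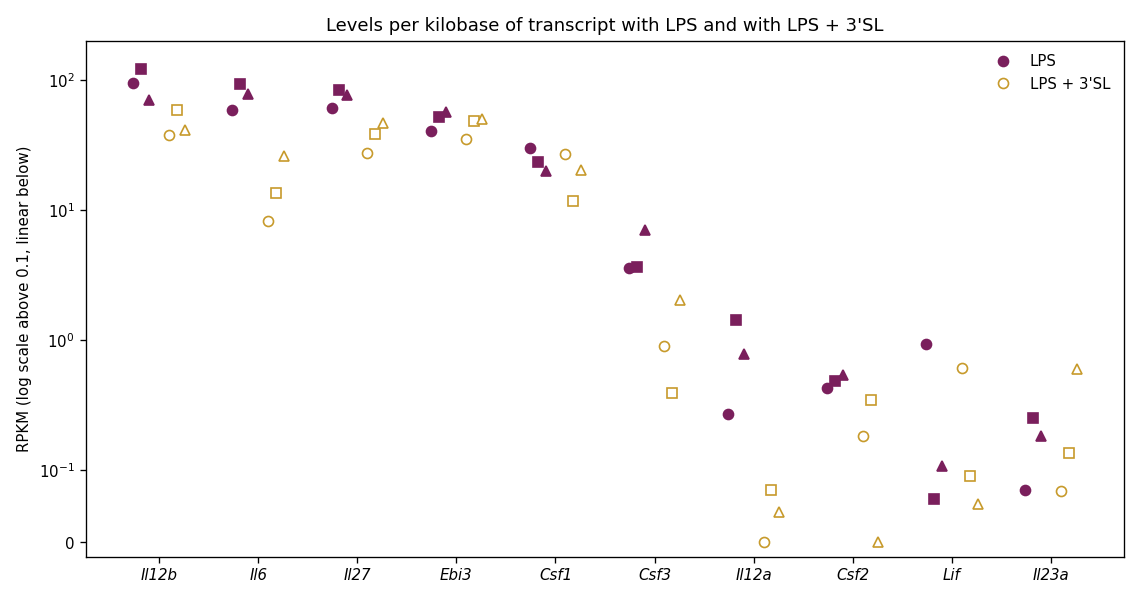
Levels per kilobase of transcript (RPKM, log scale above 0.1 and linear below) in the LPS libraries (filled) and the LPS + 3′SL libraries (open), with circles, squares, and triangles for library sets 1, 2, and 3. The subunits Il12b, Il27, and Ebi3 lie at 27.3 RPKM or more in each library, while Il12a and Il23a, which pair with Il12b, lie at 1.41 RPKM or less.

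Without LPS, 3′SL against PBS gave no call among the 7 genes with edgeR (0% of all genes), DESeq2 (0.615%), or the block (2.84%). At an unadjusted p under 0.05, 2 of the 7 genes stood (10.1% of all genes), Il12b and Il27. Il12b had 10, 10, and 24 reads with 3′SL and 8, 1, and 10 with PBS, which is 0.372, 0.398, and 0.954 CPM compared with 0.230, 0.0351, and 0.337 CPM, so that the scaled levels did not overlap (log2 fold change 1.47, SE 0.60, adjusted p = 0.468; 0.54, 2.02, and 1.30 within sets). Il27 had 10, 5, and 14 reads with 3′SL and 16, 21, and 29 with PBS, and the scaled levels overlapped (log2 fold change −0.92, SE 0.40, adjusted p = 0.483; −0.25, −1.54, and −0.73 within sets). Both genes were at less than 1 CPM in these libraries. Il6 (0.62, SE 0.81), Ebi3 (0.04, SE 0.16), Csf1 (0.47, SE 0.80), and Lif (0.55, SE 1.26) had log2 fold changes below their SE. Il12a, Csf2, and Csf3 had at most 2 reads in all libraries of either condition, which is too few to compare, and Il23a had 3 reads with 3′SL and 4 with PBS.

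Whether the response to LPS itself differed with 3′SL was tested by the interaction of both treatments. The edgeR test called 0 of the 7 genes (0% of all genes tested; 2 of 7 and 6.09% at an unadjusted p under 0.05), and DESeq2 called Il12b (0.252% of all genes were called lower). The block fit called 0 of the 7 genes (1.55% of all genes in either direction). The difference between the log2 changes was −2.53 for Il12b (SE 0.68, adjusted p = 0.588 with edgeR and 0.0188 with DESeq2), and −1.89, −3.08, and −2.07 within sets. For Il6 it was −2.87 (SE 0.93, adjusted p = 0.696 with edgeR and 0.0920 with DESeq2), and −2.14, −3.80, and −2.82 within sets. For these genes the interaction rests in part on levels of 1 to 24 reads without LPS. For Il27 the interaction was −0.05 (SE 0.60), and for Ebi3 −0.19 (SE 0.23).

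The 5 genes whose mean-centered log2 levels lay nearest to those of Il6 over the 12 libraries were Rasgrp1 (root mean square difference 0.65), Saa3 (0.68), Clic5 (0.76), AW112010 (0.77), and Serpina3g (0.77). The acute phase gene Saa3 was at 6.69 ± 2.34 CPM with PBS, 2386 ± 797 with LPS, and 707 ± 197 with LPS + 3′SL. Rasgrp1, an activator of RAS, was at 0.164 ± 0.0639, 61.5 ± 3.67, and 25.5 ± 4.41 CPM in the same conditions.

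The other genes of these pathways were described from lists, and with LPS their counts stand against 18.3% of all genes tested called higher and 20.2% called lower. Of 12 further ligands of the families, 4 passed the filter, and Osm (oncostatin M), which signals through gp130 as well, rose with LPS (log2 fold change 1.96, adjusted p = 0.00848) while Kitl (stem cell factor) fell (−0.86, adjusted p = 0.00487). Of 15 receptor chains, 14 passed the filter, 5 rose, and 1 fell (all genes, 18.3% and 20.2%), with a median log2 change of 0.54 compared with −0.06 over all genes. Il23r, the specific chain of the IL-23 receptor, had no read with PBS or 3′SL and 142 reads with LPS over the 3 libraries, which is at least 76.7-fold higher against the floor of 3 counts over the group. Csf3r, the receptor for G-CSF, went from 24.7 ± 2.76 to 356 ± 166 CPM, and Il12rb1, which IL-12 and IL-23 receptors share, from 0.350 ± 0.155 to 2.92 ± 0.916 CPM.

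Downstream of the receptors, 13 of 18 genes for JAK kinases, STAT factors, and their inhibitors rose and 1 fell with LPS (all genes, 18.3% and 20.2%), with a median log2 change of 1.66. Socs3, which blocks signaling from gp130, rose by 8.42 on the log2 scale (SE 0.67, 3.45 ± 0.718 to 1182 ± 403 CPM). Socs1, an inhibitor of JAK kinases, rose by 6.79 (SE 0.70), and Jak2, a kinase used by the receptors for IL-12 and GM-CSF, rose by 4.29 (SE 0.31). In LPS + 3′SL against LPS, Socs3 had a log2 fold change of −0.42 and Socs1 of −0.19, neither past the test in any of the 3 fits.

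Of 28 transcription factors and cofactors known to act at the promoters of Il6, Il12b, or the Csf genes, 19 rose and 1, Cebpa, fell (all genes, 18.3% and 20.2%; median log2 change 1.45). The examples with the largest changes were Nfkbiz (5.01, SE 0.31), which encodes the IκBζ protein that Il6 and Il12b are known to need, Irf7 (4.67, SE 0.85), and Batf (3.97, SE 0.32). Of 11 regulators of cytokine mRNA decay, 5 rose and 3 fell (all genes, 18.3% and 20.2%; median log2 change 0.47). Arid5a, known to stabilize Il6 mRNA, rose by 4.87 (SE 0.37), Zc3h12a, which encodes the nuclease Regnase-1 that cleaves Il6 and Il12b mRNA, by 3.54 (SE 0.35), and Zfp36, which encodes tristetraprolin, by 3.41 (SE 0.31).

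None of these 5 lists held a gene called in LPS + 3′SL against LPS with edgeR (0% of all genes) or DESeq2 (0.461% of all genes lower). The block fit called 3 genes lower, Nfkbiz (log2 fold change −0.86, adjusted p = 0.00677), Fosl2 (−0.64, adjusted p = 0.0403), and Zc3h12a (−0.78, adjusted p = 0.00359). These were 2 of the 28 transcription factors and cofactors and 1 of the 11 regulators of decay, compared with 0.762% of all genes. Akna passed the adjusted p but not the fold minimum with DESeq2 (−0.58, adjusted p = 0.00341) and the block (−0.57, adjusted p = 0.00699). It did not pass with edgeR (adjusted p = 0.164). Rel was in the same position with the block only (−0.46, adjusted p = 0.0372). With set 1 left out, the block fit called 1 gene of all those tested. Nfkbiz was at 346 ± 31.6 CPM with LPS and 194 ± 34.4 CPM with LPS + 3′SL, and Zc3h12a at 156 ± 35.1 and 93.1 ± 33.6 CPM. Median log2 changes in this comparison were −0.25 for the transcription factors, −0.15 for JAK, STAT, and SOCS genes, −0.11 for the further ligands, −0.09 for receptor chains, and −0.07 for regulators of decay, compared with −0.01 over all genes tested. Without LPS, 3′SL gave no call in these lists with edgeR (0%) or DESeq2 (0.615%). The block fit called 2 JAK, STAT, and SOCS genes, 1 transcription factor, and 1 regulator of decay higher (2.84% of all genes, either direction). For the interaction, it called 1, 5, and 2 genes of these lists lower (1.55%, either direction). DESeq2 called 1 transcription factor lower (0.252%), and edgeR called none. The block fit without set 1 called 2 genes and 1 gene of all those tested.

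Several of these regulators act on elements in the 3′ untranslated region. In the principal transcripts, all 10 genes held at least 1 AUUUA, the core of AU-rich elements that tristetraprolin and related proteins bind, as did 66.2% of 11982 genes tested with such a region. Overlapping matches were counted. Ebi3 held 1, equal to the median of all genes tested, while the other 9 held 4 (Csf1) to 9 (Csf2). Il6, Il12a, Il12b, Il23a, and Csf3 held 6 each, Il27 held 5 within only 285 bases, and Lif held 7 within 3180 bases. The longer element UUAUUUAUU stood in Csf2 (4 matches), Il27 and Lif (2 each), and Il12a and Il23a (1 each), compared with 7.11% of genes tested with at least 1 match. Binding and decay were not measured in these libraries.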

How the data were processed

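Stranded libraries were made from polyadenylated RNA. For each library, the authors deposited the number of reads on each gene as raw counts, without normalization. Per the labels, FastQC, Trimmomatic, STAR, HTSeq, and DESeq2 were used. Versions, genome build, annotation, and the strand setting of the counting are not given in the sources used here. Gene IDs were matched to GENCODE M21 (GRCm38; 42548 of 43626). The 10 genes, the lists, and their tests were chosen with earlier results of these data known. The genes named are these 10, up to 3 genes with the largest change per list and comparison, and the 5 nearest to Il6. Fosl2, Cebpa, Akna, Rel, Apobr, Gm16712, and the markers Cd4, Vwf, and Xcr1 were named after their values were seen.

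The fits used edgeR 4.0.16 in R 4.3.3 (filterByExpr, TMM factors, 1 mean per condition over 12 libraries, quasi-likelihood test), which left 14308 genes tested. The TMM factors were 1.08 to 1.30 in the libraries without LPS and 0.700 to 0.939 in those with LPS. P-values were adjusted by Benjamini-Hochberg over these genes. Calls needed an adjusted p below 0.05 with a change of 1.5-fold or more. SEs derive from the fold change and F. CPM use TMM-scaled library sizes, RPKM divide them by the principal transcript's length, and within-set changes are log2 ratios with a prior of 2 reads. No pair of libraries of a condition agreed within sampling noise. The chi-square per gene was 14.6 to 19.8 between sets 1 and 2 and 58.8 to 110 in pairs with set 3, which lay farthest apart in each condition. The test was tried on simulated data. Alternatives were DESeq2 1.42.0, its size factors, total counts, no filter, the library set as a block, only the conditions compared, no fold minimum, and leaving out each library. Leaving out a library set, with or without the block, was added after the data had been seen. Exact intervals and floors cover counting error only.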

Additional observations from a re-analysis of the deposited data

How the results depend on the processing

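Il6, Il12b, Il27, Ebi3, and Csf3 were called for both LPS comparisons (with and without 3′SL) under all alternatives run, whereas the number of genes called in the 3′SL comparisons varied with the setting. Of the log2 fold changes of single genes under the alternatives, 732 kept their direction and side of the threshold, 31 newly passed it, 32 changed sign, and 0 lost it. The sign changes were all in values that had not passed the test. Total counts in place of TMM moved the median log2 change of all genes with LPS from −0.06 to −0.71 and left the 5 genes called. The genes called in LPS against PBS went from 2613 higher and 2889 lower to 1535 higher and 6657 lower. The shares of 18.3% and 20.2% therefore hold for TMM scaling only. Ebi3 went from 2.05 to 1.38 on the log2 scale.

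In LPS + 3′SL against LPS, the main test called 0 genes, and the count was 1 with DESeq2 size factors, 1 with total counts, 2 without the filter, 113 with DESeq2, 207 with the library-set block, and 218 with the block and total counts. With the block, 1 gene was called with set 1 left out and 371 with set 3 left out. Leaving out single libraries gave 0 to 8, the 8 without 3′SL replicate 3. Of the 7 genes, 2 were called with DESeq2 and 4 with the block, with the block and total counts, and with the block without set 3. For 3′SL against PBS, 0 genes were called in the main test, 88 with DESeq2, 406 with the block, 365 with the block and total counts, and 2, 3, and 323 with the block and set 1, 2, or 3 left out. For the interaction, the counts were 0 in the main test, 44 with DESeq2, 222 with the block, 136 with the block and total counts, and 1 and 457 with the block and set 1 or 3 left out, and 1 of the 7 genes was called with DESeq2 and 1 with the block without set 3. With the block and total counts, 9098 genes were called for LPS against PBS (5502 in the main test) and 7422 for LPS + 3′SL against 3′SL (4171). The cause of these moves was not tested.

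Signs changed as follows. For Lif in LPS + 3′SL against 3′SL, the value was −0.12 with total counts, −0.36 with the block and total counts, −0.28 with set 1 left out, and −0.26 and −0.19 with the block and set 1 or 2 left out. For 3′SL against PBS, the values were −0.043 (total counts) and −0.046 (block and total counts) for Ebi3, and −0.21 for Il6 and −2.03 for Csf3 with the block and set 3 left out. For the interaction of Il27 they were 0.11 with total counts, 0.091 with the block and total counts, 0.27 with set 1 left out, and 0.26 with the block and set 1 left out. Leaving out single libraries gave ranges for Lif of −0.75 to 2.57 (LPS against PBS), −1.47 to 1.48 (LPS + 3′SL against 3′SL), −2.31 to 1.58 (LPS + 3′SL against LPS), −0.64 to 1.74 (3′SL against PBS), and −2.86 to 1.03 (interaction). In 3′SL against PBS they were −0.75 to 1.46 for Csf1, −1.61 to 1.76 for Csf3, −0.033 to 0.10 for Ebi3, and −0.082 to 1.47 for Il6, and in the interaction −1.78 to 0.43 for Csf1 and −0.34 to 0.36 for Il27. In the comparisons with LPS other than the interaction, and apart from Lif, a single library moved the fold by over 1.5 times for Il6, Csf3, and Csf1 with LPS (9.89, 10.27, and 2.89 without PBS replicate 1), for Il6 and Csf3 in LPS + 3′SL against 3′SL (6.84 and 8.21 without 3′SL replicate 3, and 5.66 for Csf3 without LPS + 3′SL replicate 3), for Csf1 there (2.33 without 3′SL replicate 1), and for Csf3 in LPS + 3′SL against LPS (−2.87 without LPS + 3′SL replicate 3). The labels give no replicate numbers, so libraries were paired only by library set, in the block fit. With 3 libraries a condition and levels of a few reads for Il12a, Il23a, and Csf2, differences in these genes could be missed at this depth.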
